A study of Mus musculus with 2 samples.

Results

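The Stalk cells of the P6 mouse retina were the 230 barcodes of the P6 library to which the authors' annotation gave the cluster name Stalk, out of 1560 annotated P6 cells (14.7%, exact Clopper-Pearson 95% interval 13 to 16.6%). They were described against the other 1330 annotated P6 cells, which carried 8 other names: Tip (170), Capillary (149), Cap-Venous (414), Cap-Arterial (162), Arterial (40), Venous (42), Primitive (155) and Proliferative (198). The library came from wild-type C57BL/6 retinas at postnatal day 6 (P6), and a second library came from wild-type C57BL/6 retinas at postnatal day 15 (P15). Before droplet sequencing, both cell suspensions were enriched by FACS for CD31, a surface protein of endothelium, and depleted of cells with CD45, a surface protein of leukocytes, and the number of animals behind each library was not given in the sources used here. The annotation of 438 P15 cells, the first ones in its order, was held here, of which 85 were Stalk.

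In a growing retinal plexus, tip cells lead each sprout and extend filopodia toward VEGF, whereas stalk cells follow behind, divide, form the lumen and keep contact with the parent vessel. Tip cells present the Notch ligand DLL4, Notch signalling in the neighbours lowers their VEGF receptor activity, and the ligand JAG1 on stalk cells counters DLL4. *Actb* encodes cytoplasmic β-actin, the more abundant partner of γ-actin (*Actg1*) in non-muscle actin filaments. Transcription of *Actb* is known to respond to serum response factor (SRF) and its MRTF cofactors.

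Each captured mRNA was counted once by its unique molecular identifier (UMI), and the deposited values are UMI counts per gene and cell. The level of a gene in a set of cells is its summed UMIs per 1000000 UMIs of that set (CPM). A ratio is the CPM in Stalk cells divided by the CPM in the other annotated P6 cells, with an exact 95% interval that covers counting error only. There was 1 library per age and thus no replicate, no p-value is given, and the cells had been clustered on these same genes, so every ratio is a description of this cluster and no test of it. The P6 library held 13958124 UMIs in 1984 barcodes and the P15 library 11589641 UMIs in 2141 barcodes, 7 barcode sequences occurred in both, and 424 P6 barcodes carried no cluster name. Stalk cells were sequenced about as deeply as the others, with a median of 5450 against 5346 UMIs, 2245 against 2251 genes, 1.12% against 1.25% mitochondrial UMIs and 18.6% against 18.5% ribosomal protein UMIs. Together they held 1404252 UMIs, and the other cells 8238143.

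*Actb* lies on chromosome 5 (GRCm38, 142903115 to 142906754, minus strand). It stood at 40056 CPM in Stalk cells and at 6858 CPM in the others, a ratio of 5.84 (5.77 to 5.91). Among the other clusters, *Actb* was lowest in Cap-Venous cells at 4871 CPM and highest in Venous cells at 10779 CPM, so the Stalk level was 3.72 times that of the nearest cluster (3.58 to 3.85). Within single cells the level was spread widely. Per 10000 UMIs of a cell, *Actb* had a lowest value of 53.8, a median of 327 and a highest value of 1396 UMIs among Stalk cells, against 0, 48.4 and 1180 among the others. The groups overlapped: 191 Stalk cells (83.0%) lay above the 95th percentile of the other cells, 160 UMIs per 10000, whereas 139 other cells (10.5%) lay above the 5th percentile of the Stalk cells, 103 UMIs per 10000. Proliferative cells gave 37 of these 139, Tip cells 23 and Capillary cells 22. Of the 424 P6 barcodes without a name, 97 lay above the same 5th percentile.

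**Figure D1:**
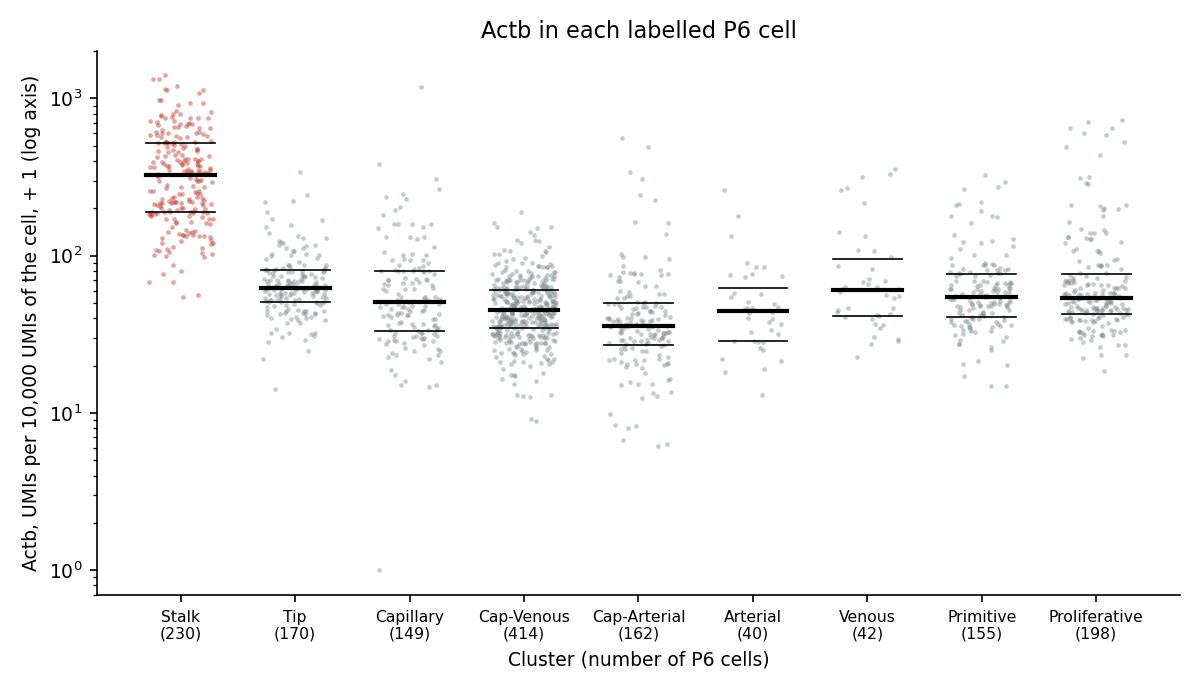
Each point is 1 annotated P6 cell, placed by cluster (number of cells in parentheses) and by its *Actb* UMIs per 10000 UMIs plus 1, on a log axis; thick bars are medians and thin bars quartiles. The Stalk median of 327 lies above the medians of all 8 other clusters, and single cells of other clusters reach the Stalk range.

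Genes with at least 200 UMIs over all annotated P6 cells were compared with a limit of 1.5-fold and are called tested. Of these 5874 genes, 148 (2.52%) were at least 1.5-fold higher in Stalk cells and 244 (4.15%) at least 1.5-fold lower, and 79 and 70 passed 2-fold. The median ratio over all 5874 genes was 0.942. Of the 148 higher genes, 108 had a higher CPM in Stalk cells than in any of the 8 other clusters. The nearest cluster was most often Arterial (54 genes), Capillary (35) or Venous (27), of which Arterial and Venous held only 40 and 42 cells, so that their levels carried the widest counting error.

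The 20 genes with the highest ratios included *Actb*, and all 20 had a higher CPM in Stalk cells than in any other cluster. For 19 of them the interval of the ratio to the nearest cluster lay above 1. The exception was *Clasp2*, encoding a protein that stabilises microtubule plus ends, at 104 CPM in Stalk and 65.8 CPM in Arterial cells (1.58, 0.896 to 3.04). The leading gene was *Ccdc85c*, encoding a coiled-coil protein of cell junctions, with 216 CPM against 29.6 CPM (7.31, 6.16 to 8.69). It was found in 50% of Stalk cells and 15% of the others, or in 38.5% and 8.59% after every cell was thinned to 3000 UMIs. Its nearest cluster was Proliferative, at 43.6 CPM. *Ccdc85c* lies on chromosome 12 (GRCm38, 108203602 to 108275425, minus strand).

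Some of the leading genes encode membrane carriers and channels. *Slc39a1*, which encodes the zinc importer ZIP1 of the plasma membrane, stood at 671 CPM against 104 CPM (6.45, 5.87 to 7.08), and was found in 85.2% of Stalk cells and 37.8% of the others. *Ttyh2*, encoding a tweety-family membrane protein, stood at 1026 CPM against 209 CPM (4.91, 4.57 to 5.27), and in Arterial cells at 5.06 CPM. *Lrrc8a*, the obligatory subunit of the volume-regulated anion channel, stood at 613 CPM against 148 CPM (4.14, 3.79 to 4.52). Primitive cells had the lowest levels of *Slc39a1* and *Lrrc8a*, at 67.9 and 89.2 CPM, and Arterial cells that of *Ttyh2*.

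Others encode enzymes and regulators of lipid and peptide metabolism. *Abhd2*, a serine hydrolase, stood at 1661 CPM against 304 CPM (5.46, 5.16 to 5.78), was found in 96.5% of Stalk cells, and was nearest in Capillary cells at 585 CPM. *Insig1*, which retains the sterol sensor complex in the endoplasmic reticulum, stood at 120 CPM against 21.4 CPM (5.60, 4.51 to 6.96). *Acot2*, a mitochondrial acyl-CoA thioesterase, had a ratio of 3.98 (3.15 to 5.02). *Pam*, the enzyme that amidates peptide hormones, stood at 412 CPM against 94.8 CPM (4.34, 3.89 to 4.84), with 243 CPM in Arterial cells.

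Most of the remaining leading genes encode nuclear and signalling proteins. *Cdkn1b*, encoding the CDK inhibitor p27Kip1, stood at 134 CPM against 31.7 CPM (4.23, 3.48 to 5.12). *Pim1*, a serine/threonine kinase, had a ratio of 3.76 (3.12 to 4.54), *Hsf2*, a heat shock transcription factor, of 3.67 (2.80 to 4.80), and *Nfia*, a nuclear factor I transcription factor, of 3.56 (3.25 to 3.90). *Wtap* and *Alkbh5*, a cofactor of the enzyme that writes N6-methyladenosine (m6A) in mRNA and an enzyme that removes the mark, had ratios of 3.58 (3.21 to 3.98) and 3.59 (3.16 to 4.07). *Marf1*, encoding an RNA-binding protein with a ribonuclease domain, had a ratio of 3.77 (3.26 to 4.36). The others were *Itpripl1* (4.41), the uncharacterised *4933415A04Rik* (3.81) and the noncoding *Gm32036* (3.99), which lies antisense within *Elmo1*. *Elmo1* itself had a ratio of 0.928 (0.728 to 1.17).

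**Figure D2:**
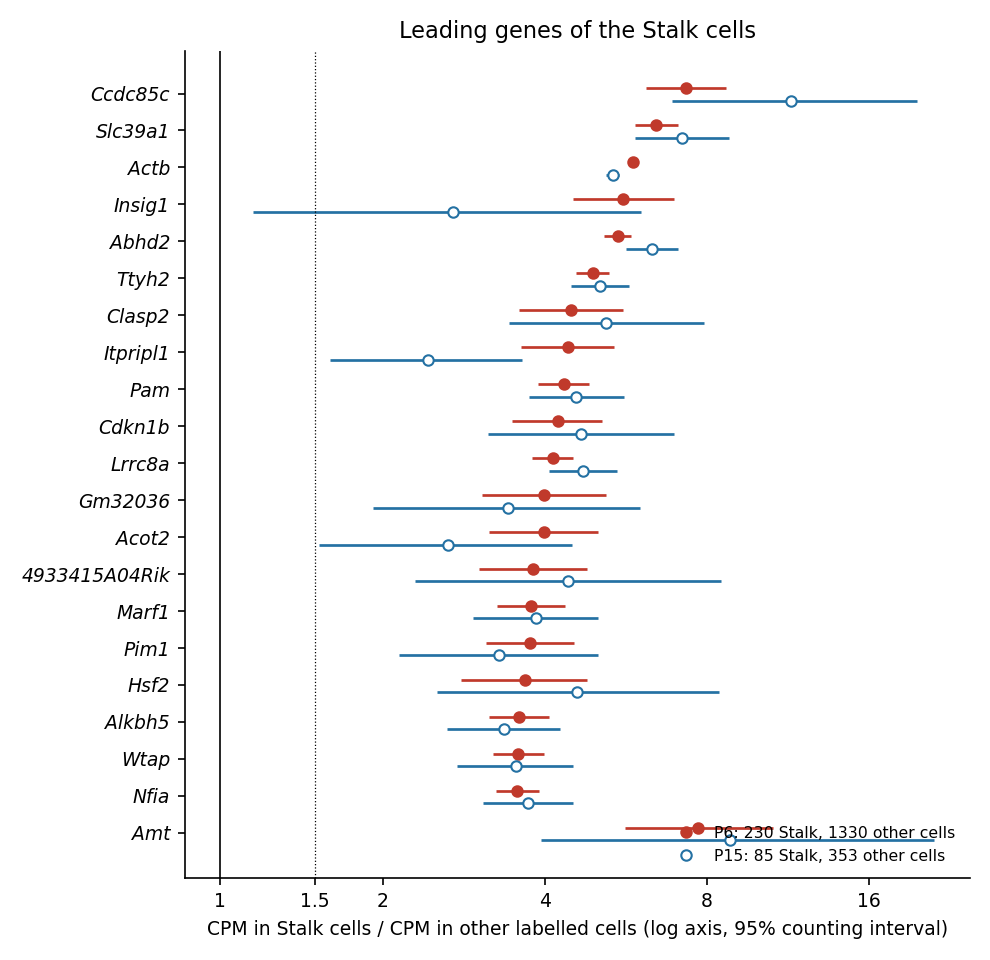
Ratio of CPM in Stalk cells to CPM in the other annotated cells for the 20 leading genes and *Amt*, at P6 (filled) and P15 (open), with 95% counting intervals on a log axis; the dotted line marks 1.5-fold. All P6 ratios of the 20 genes lie at 3.56 or above and all their P15 ratios at 2.43 or above.

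*Amt* encodes the aminomethyltransferase of the mitochondrial glycine cleavage system. With 96 UMIs in Stalk and 73 in the other cells it fell short of 200 UMIs and was not among the 5874 genes. It stood at 68.4 CPM against 8.86 CPM (7.71, 5.63 to 10.6), and was found in 24.8% of Stalk cells and 4.74% of the others. In Arterial cells it stood at 35.4 CPM from 7 UMIs, and the ratio of Stalk to Arterial cells, 1.93, had an interval of 0.901 to 4.93. *Amt* lies on chromosome 9 (GRCm38, 108296853 to 108302302, plus strand), 3827 bases before the start of *Rhoa* on the same strand. *Rhoa*, encoding the GTPase that drives stress fibre assembly, had a ratio of 1.43 (1.32 to 1.55). *Nicn1*, 355 bases from *Amt*, had a ratio of 1.08 (0.655 to 1.72). The partner subunits of AMT did not share its level: *Gcsh* had a ratio of 1.14 (0.940 to 1.38) and *Dld* of 0.745 (0.577 to 0.95), and *Gldc* had no UMI in Stalk cells. Of the 8 tested genes of serine synthesis, glycine cleavage and folate metabolism, 0 were at least 1.5-fold higher (beside 2.52% of all genes). In this list 1 tested gene was at least 1.5-fold lower (beside 4.15% of all genes). *Phgdh*, the entry enzyme of serine synthesis, had a ratio of 0.560 (0.340 to 0.877).

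Genes within 10000 bases of other leading genes gave ratios on both sides of 1. *Ccnk* lies 243 bases from *Ccdc85c* on the opposite strand and had a ratio of 1.20 (0.780 to 1.78). *Crtc2* lies 551 bases from *Slc39a1* on the same strand and had a ratio of 1.28 (0.787 to 2.0). *Rpl38* lies 3100 bases from *Ttyh2* on the same strand and had a ratio of 1.0 (0.976 to 1.02). *Nde1*, which overlaps *Marf1* on the opposite strand, had a ratio of 0.758 (0.585 to 0.971). *Lockd*, a noncoding gene 3579 bases from *Cdkn1b* on the same strand, had a ratio of 0.463 (0.310 to 0.668). *Gm3531*, which overlaps *Pam* on the same strand, had a ratio of 2.61 (1.20 to 5.32) and cannot be told apart from it with certainty. The strandedness of the counting was not given in the sources used here, so reads of overlapping genes could not be assigned by strand.

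**Figure D3:**
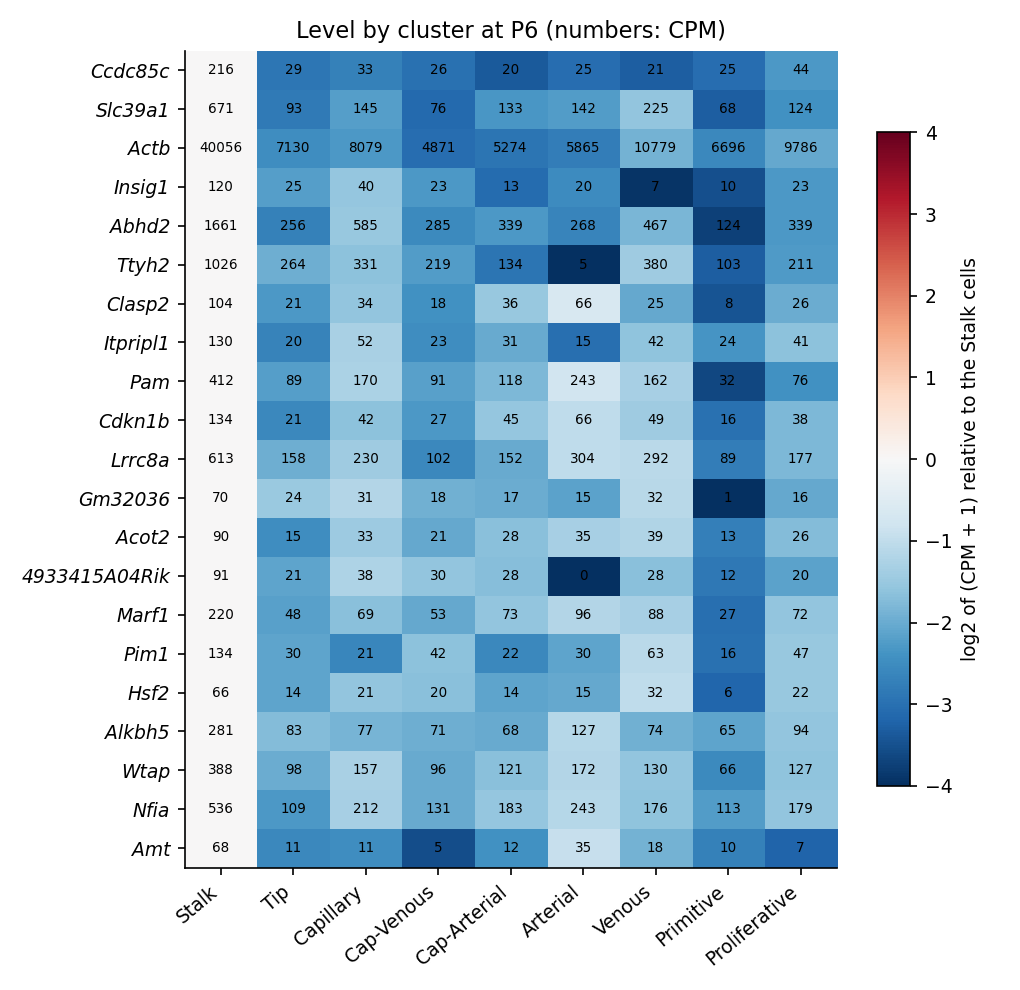
Level of the 20 leading genes and *Amt* in the 9 P6 clusters. Colours give the log2 of CPM plus 1 relative to the Stalk cells and numbers give the CPM. Stalk has the highest CPM in every row, and the next highest level falls in Arterial, Venous or Capillary cells for 19 of the 20 leading genes and in Proliferative cells for *Ccdc85c*.

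Since the leading genes were high in the same cluster, their promoters were examined for the letters of 6 known motifs. RefSeq promoter windows (GRCm38.p6, 250 bases before to 50 bases after the start) were held for 18 of the 20 genes, and *Actb* and *4933415A04Rik* had no entry. The stretches upstream of the annotated starts are shown for the 4 leading genes with an entry and the highest ratios, 5′ to 3′ on the strand of the gene, in lower case with motif matches in capitals. They lie at chr12:108275426-108275643 (minus strand), chr3:90247942-90248171 (plus), chr5:28071162-28071362 (plus) and chr7:79273016-79273198 (plus), in this order.
*Ccdc85c*: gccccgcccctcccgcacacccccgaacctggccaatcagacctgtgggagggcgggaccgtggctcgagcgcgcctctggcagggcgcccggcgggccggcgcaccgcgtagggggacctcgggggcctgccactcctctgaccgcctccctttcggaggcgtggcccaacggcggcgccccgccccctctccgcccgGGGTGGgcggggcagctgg
*Slc39a1*: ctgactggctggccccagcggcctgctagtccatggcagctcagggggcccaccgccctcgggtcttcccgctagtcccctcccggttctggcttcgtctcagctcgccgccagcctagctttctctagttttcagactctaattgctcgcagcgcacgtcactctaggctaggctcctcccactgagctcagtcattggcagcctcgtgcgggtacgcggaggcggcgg
*Insig1*: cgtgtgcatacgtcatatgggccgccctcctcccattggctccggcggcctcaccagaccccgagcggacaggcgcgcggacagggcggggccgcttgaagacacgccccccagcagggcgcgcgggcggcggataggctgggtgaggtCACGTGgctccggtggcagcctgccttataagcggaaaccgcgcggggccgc
*Abhd2*: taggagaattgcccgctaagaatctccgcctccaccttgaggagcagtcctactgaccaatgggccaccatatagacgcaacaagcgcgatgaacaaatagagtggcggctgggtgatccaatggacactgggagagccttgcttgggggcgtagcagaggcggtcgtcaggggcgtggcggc
The capitals mark CCACCC, bound by KLF factors, in *Ccdc85c* (read on the opposite strand as GGGTGG) and the E-box CACGTG in *Insig1*. The stretches of *Slc39a1* and *Abhd2* shown here held none of the motifs. The rest of the *Slc39a1* window, which is not printed, held CCACCC and TGGGAA, and the whole *Abhd2* window held none. The share of bases that are G or C was 79.4% for *Ccdc85c*, 65.2% for *Slc39a1*, 72.6% for *Insig1* and 59.0% for *Abhd2*. Over whole 300-base windows and both strands, CCACCC was found for 8 of the 18 leading genes (44.4%), against 39.7% of 4516 tested genes with a window and 34% of all 27025 genes in the table. The E-box CACGTG was found for 4 (22.2%, against 12.4% and 8.09%), TGGGAA, the RBPJ motif of Notch signalling, for 5 (27.8%, against 25.7% and 28.3%), and GGAATG, the TEAD motif, for 2 (11.1%, against 14% and 16.6%). The CArG box of SRF was found for 0 of 18 (1.64% of tested and 1.81% of all genes), as was the AP-1 motif TGANTCA (5.31% and 8.97%). Over the 115 higher genes with a window, CCACCC was found for 39.1%, CACGTG for 13%, TGGGAA for 25.2%, GGAATG for 19.1%, TGANTCA for 4.35% and the CArG box for 0.870%. These matches are letters in a window and not binding sites.

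Most genes usually given to stalk cells were not higher in the cells of this name. Of 14 tested stalk genes of the literature, 1 was at least 1.5-fold higher, beside 2.52% of all genes, and 1 was at least 1.5-fold lower, beside 4.15%. The higher gene was *Jag1*, at 434 CPM against 150 CPM (2.89, 2.62 to 3.18), which was higher still in Arterial cells at 1088 CPM and had a ratio of 1.63 when the 8 other clusters weighed the same. The lower gene was *Hey1*, a Notch target also used as an arterial marker, at 10.7 CPM against 40.8 CPM (0.262, 0.145 to 0.438). The Notch target *Hes1* stood at 367 CPM against 399 CPM (0.920, 0.837 to 1.01), the decoy VEGF receptor *Flt1* had a ratio of 0.934 (0.865 to 1.01), and the angiopoietin receptor genes *Tie1* and *Tek* had ratios of 0.868 (0.782 to 0.961) and 0.900 (0.767 to 1.05). *Notch1* and the Notch feedback gene *Nrarp* had 13 and 12 UMIs in Stalk cells and were too sparse to compare. Of the 14 genes, 1 had an interval above 1 and 8 had an interval below 1. The median ratio of the 14 genes was 0.857, beside 0.845 for the tip cell genes given below and 0.942 over all genes. The name Stalk is used here as the label of the annotation, and its leading genes were *Ccdc85c*, *Slc39a1* and *Actb*.

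The cells carried the endothelial genes. All 15 tested pan-endothelial genes lay within 1.5-fold of the other cells (beside 2.52% of all genes higher and 4.15% lower). Among the 15 were *Pecam1*, which encodes the sorted protein CD31, at 489 CPM against 517 CPM (0.945, 0.870 to 1.02), *Cdh5* (0.864, 0.794 to 0.938) and *Cldn5* (0.982, 0.958 to 1.01). Several marker lists of other cell types were read in the same way. The 10 pericyte and smooth muscle genes summed to 14.2 CPM in Stalk cells against 8.01 CPM in the other cells (1.78, 1.02 to 2.97), and to 0 to 15.2 CPM in the single other clusters. In Stalk cells 7 of the 10 had 0 UMIs, *Pdgfrb*, *Cspg4* and *Acta2* among them, and the pericyte gene *Rgs5* stood at 12.8 CPM against 5.58 CPM. Microglial genes summed to 0.712 CPM (0 to 6.01 CPM in the other clusters), erythroid genes to 16.4 CPM (10.1 to 28.7 CPM), and neuronal genes to 3.56 CPM against 56.3 CPM, the latter mostly from *Stmn2*, which reached 1179 CPM in Arterial cells. Of the Muller and astrocyte genes 1 was tested, *Glul*, at 204 CPM against 357 CPM (0.573, 0.506 to 0.647).

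Of 19 tested tip cell genes, 0 were at least 1.5-fold higher (beside 2.52% of all genes) and 3 at least 1.5-fold lower (beside 4.15%), 9 had an interval below 1, and the median ratio was 0.845 beside 0.942 over all genes. The lower genes were *Esm1* at 11.4 CPM against 37.3 CPM (0.306, 0.173 to 0.505), the netrin receptor gene *Unc5b* (0.468, 0.316 to 0.672) and the chemokine receptor gene *Cxcr4* (0.614, 0.418 to 0.875). The ligand genes *Dll4* and *Pdgfb* had ratios of 0.895 (0.756 to 1.05) and 0.935 (0.738 to 1.17). The potassium channel subunit gene *Kcne3*, also on the tip list, had the highest ratio among them, 1.41 (1.11 to 1.77). The whole list summed to 3913 CPM in Stalk cells, 6992 CPM in Tip and 7335 CPM in Capillary cells. It summed to 3514 CPM in Cap-Venous, 3147 CPM in Primitive and 4228 to 4978 CPM in the remaining clusters. A low tip sum was thus not particular to Stalk cells.

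The high *Actb* was not shared by the other genes of the actin cytoskeleton. Of 37 tested genes of actin and its binding proteins, 2 were at least 1.5-fold higher (beside 2.52% of all genes) and 0 lower (beside 4.15%). The higher genes were *Actb* and *Myh9*, encoding the non-muscle myosin heavy chain IIA (186 CPM against 120 CPM, 1.55, 1.35 to 1.78). The γ-actin gene *Actg1* stood at 2637 CPM against 2848 CPM (0.926, 0.894 to 0.959). The monomer-binding genes *Pfn1*, *Cfl1* and *Tmsb4x* had ratios of 0.948 (0.913 to 0.984), 0.938 (0.903 to 0.973) and 0.959 (0.946 to 0.973), and the Arp2/3 subunit gene *Actr2* had 1.44 (1.29 to 1.61). The summed CPM of the list was 1.52 times that of the other cells (1.51 to 1.53), whereas the median ratio of its members was 0.946. *Actb* alone gave 40056 of the 90114 CPM of the list.

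Targets and partners of the pathways that act on actin were likewise near the other cells. Of 11 tested SRF and MRTF genes, 1 was at least 1.5-fold higher (beside 2.52% of all genes) and 1 lower (beside 4.15%). The higher gene was the cofactor *Mrtfb* itself (293 CPM against 155 CPM, 1.89, 1.69 to 2.12), and the lower gene was *Lima1* (0.632, 0.435 to 0.893). *Srf* had a ratio of 1.32 (0.918 to 1.86), *Zyx* of 0.971 (0.779 to 1.20) and *Tpm1* of 0.902 (0.773 to 1.05). All 8 tested YAP and TEAD genes, among them *Ccn1* (0.991, 0.811 to 1.20) and *Amotl2* (1.31, 0.945 to 1.78), lay within 1.5-fold. Over all genes 2.52% were higher and 4.15% lower.

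**Figure D4:**
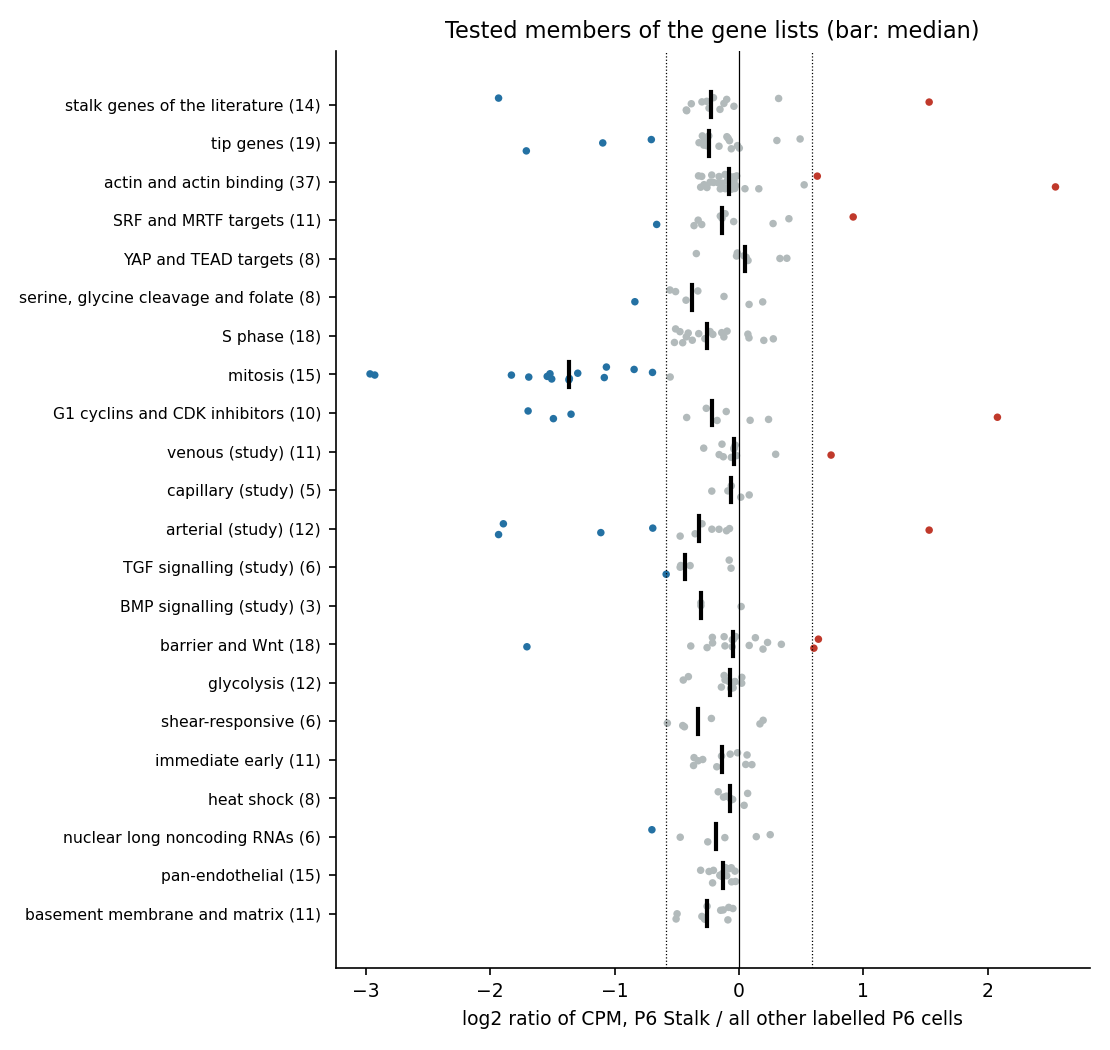
Log2 ratio of CPM in Stalk to the other annotated P6 cells for each tested gene of the lists shown, each with at least 3 tested genes (number in parentheses); black bars are medians, dotted lines mark 1.5-fold, and red and blue points lie past it. Single genes such as *Actb*, *Cdkn1b* and *Jag1* stand far to the right of lists whose medians lie near 0, and 14 of 15 mitosis genes lie to the left.

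The sum of mitosis genes was low in Stalk cells beside the Proliferative and Primitive cells, and not beside the remaining clusters as a whole. Of 15 tested mitosis genes, 14 were at least 1.5-fold lower than in the other cells (beside 4.15% of all genes), with *Top2a* at 64.8 CPM against 167 CPM (0.388, 0.310 to 0.480) and *Ccnb2* the exception (0.682, 0.530 to 0.866). The summed CPM of the mitosis list was 546 in Stalk cells, 4078 in Proliferative cells and 172 in the lowest cluster, and its ratio of 0.434 (0.403 to 0.467) became 1.52 once Proliferative and Primitive cells were left out of the comparison. Single genes differed from the sum: *Cenpf* and *Aurka*, named for their low ratios, stayed at 0.445 and 0.429 there, from 7 and 6 UMIs in Stalk cells. Thinned to 3000 UMIs, 10.7% of 205 Stalk cells held at least 5 UMIs of the list (6.85 to 15.8%), against 87.7% of Proliferative, 23.1% of Capillary (14.9 to 33.1%), 7.05% of Tip (3.57 to 12.3%) and 2.58% of Cap-Venous cells (1.24 to 4.69%). Unthinned, these shares were 17.8%, 98.5%, 20.1%, 11.8% and 7.73%. Of 18 tested S phase genes, 0 passed 1.5-fold in either direction (beside 2.52% of all genes higher and 4.15% lower). The ratio of their sum, 0.845 (0.799 to 0.893), became 1.42 without Proliferative and Primitive cells.

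Among 10 tested G1 cyclins and CDK inhibitors, *Cdkn1b* was the 1 gene at least 1.5-fold higher (beside 2.52% of all genes). The inhibitors *Cdkn1c*, *Cdkn2c* and *Cdkn2d* were at least 1.5-fold lower (beside 4.15%). *Cdkn1c*, encoding p57Kip2, stood at 12.1 CPM against 39.2 CPM (0.309, 0.178 to 0.502), and at a ratio of 0.724 against Tip, Capillary and Cap-Venous cells alone. *Cdkn2c* and *Cdkn2d* had ratios of 0.356 (0.208 to 0.572) and 0.392 (0.242 to 0.604). *Cdkn1a*, encoding p21, had a ratio of 1.06 (0.924 to 1.22) and *Ccnd1* of 1.18 (0.981 to 1.41).

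The sum of arterial genes was low in the Stalk cells beside the Arterial and Cap-Arterial cells, and not beside every cluster. Over the 5874 genes, the profile of log2 CPM was most like that of Cap-Venous cells (Pearson r of 0.974 across genes, with a pseudocount of 10 CPM), then Tip (0.962), and least like Arterial cells (0.839). Clusters of fewer cells have noisier profiles, and r across genes describes these clusters only. The arterial, venous, capillary, TGF and BMP lists were taken from the genes the study used on these same cells, so they are no independent evidence of a direction. Their arterial list summed to 2688 CPM in Stalk cells, 12328 CPM in Arterial, 7444 CPM in Cap-Arterial and 2334 CPM in Cap-Venous cells, and its ratio of 0.823 (0.795 to 0.851) became 1.03 against Tip, Capillary and Cap-Venous cells alone. *Jag1* gave 434 CPM of the Stalk sum and had a ratio of 3.53 in that comparison, whereas *Hey1* had 0.489. The sum therefore does not stand for every arterial gene. Of 12 tested arterial genes, *Jag1* was at least 1.5-fold higher (beside 2.52% of all genes) and 4 were at least 1.5-fold lower (beside 4.15%): the connexin 37 gene *Gja4* (81.2 CPM against 302 CPM, 0.269, 0.221 to 0.325), *Hey1*, the ligand gene *Efnb2* (0.463, 0.270 to 0.749) and *Sox17* (0.619, 0.535 to 0.712). Of 11 venous genes, 1 was at least 1.5-fold higher (beside 2.52% of all genes) and 0 lower (beside 4.15%). The higher gene was the venous fate factor *Nr2f2* (119 CPM against 71.1 CPM, 1.67, 1.40 to 1.99), with *Ephb4* at 0.896 (0.688 to 1.15). All 5 capillary genes lay within 1.5-fold.

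Most tested genes of the signalling and metabolic lists lay within 1.5-fold, as did most of all tested genes. Among 6 tested TGF and 3 BMP genes, 0 were higher (beside 2.52% of all genes). *Smad7* was lower (0.667, 0.441 to 0.975), beside 4.15% of all genes. Of 18 barrier and Wnt genes, 2 were at least 1.5-fold higher (beside 2.52% of all genes) and 1 lower (beside 4.15%). The higher genes were the monocarboxylate carrier gene *Slc16a1* (1.56, 1.3 to 1.86) and the caveolar coat gene *Cavin1* (1.52, 1.38 to 1.67). The lower gene was the organic anion carrier gene *Slco1a4* (0.307, 0.173 to 0.506). None of the 12 glycolysis, 6 shear-responsive, 11 immediate early, 8 heat shock and 11 basement membrane genes that were tested passed 1.5-fold in either direction. Neither did any of 82 ribosomal protein or 10 mitochondrially encoded genes. Over all genes 2.52% were higher and 4.15% lower, so 0 such genes do not set a short list apart. In the immediate early list *Fos* stood at 0.797 (0.623 to 1.01), and in the heat shock list *Hspa8* at 0.918 (0.880 to 0.957). Of the 6 nuclear long noncoding RNAs, *Xist* was lower (0.616, 0.424 to 0.869), beside 4.15% of all genes, and *Malat1* had a ratio of 0.841 (0.823 to 0.859).

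Most of the 10 genes with the lowest ratios were highest in Arterial or Proliferative cells. *Aqp1* had 0 UMIs in Stalk cells, where a floor of 3 UMIs corresponds to 2.14 CPM and the exact Poisson upper limit is 2.63 CPM, against 349 CPM in Arterial cells. The elastic fibre genes *Eln* and *Ltbp4*, the matrix inhibitor of calcification *Mgp*, the actin-binding gene *Nebl* and the chemokine gene *Cxcl12* had 3 to 14 UMIs in Stalk cells and were highest in Arterial cells, at 390 to 1741 CPM. *Cenpf* and *Aurka* were highest in Proliferative cells, at 141 and 104 CPM, and stood at 4.98 and 4.27 CPM in Stalk cells. The exception was *Gm15697*, which was highest in Capillary cells at 91.8 CPM and stood at 4.27 CPM in Stalk cells. The low ratio rested wholly or in part on the arterial clusters for several of them. Against Tip, Capillary and Cap-Venous cells alone, *Cxcl12*, *Stmn2* and *Nebl* had ratios of 1.38, 1.23 and 1.28. These values came from 14, 2 and 5 UMIs in Stalk cells and have no interval, so a level above those clusters is not established. In the same comparison *Ltbp4* moved from 0.181 to 0.791 and *Mgp* from 0.0891 to 0.657, on 8 and 6 UMIs in Stalk cells. *Eln* moved from 0.0624 to 0.196, on 3 UMIs.

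Because the leading genes were chosen for a high level in Stalk cells, the number of them found per cell is a description that this choice fixes to be higher there. Of the 19 without *Actb*, Stalk cells held UMIs of a median of 11 (range 3 to 18), against 5 (0 to 17) in the others. After thinning to 3000 UMIs, which left out 25 Stalk and 143 other cells, the medians were 8 and 3, and the next clusters, Capillary and Venous, had a median of 4. The groups overlapped at the edges: the 5th percentile of thinned Stalk cells, 4 genes, was also the upper quartile of the other cells.

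The leading genes were not a single block across Stalk cells. Over 205 thinned Stalk cells, *Actb* and the sum of the 19 others had a Spearman correlation of 0.57, which is given without a p since cells of 1 library and depth share their source. The relation with *Actb* was closest for *Slc39a1* (0.54), *Ccdc85c* (0.45), *Abhd2* (0.45), *Pam* (0.39) and *Wtap* (0.39). *Ttyh2* and *Lrrc8a* had correlations of −0.03 and −0.01, although both were found in over 70% of Stalk cells after thinning (77.6% and 72.7%). With each other they had a correlation of 0.01. Within the other clusters, the correlation of *Actb* with the sum lay between 0.17 in Primitive and 0.76 in the 32 thinned Arterial cells. In 359 thinned P6 barcodes without a cluster name the same correlation was 0.48. All P6 barcodes without a name had a median of 7552.5 UMIs before thinning. They can include barcodes that the authors excluded, such as those of other cell types, so the value is no independent check of the relation.

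**Figure D5:**
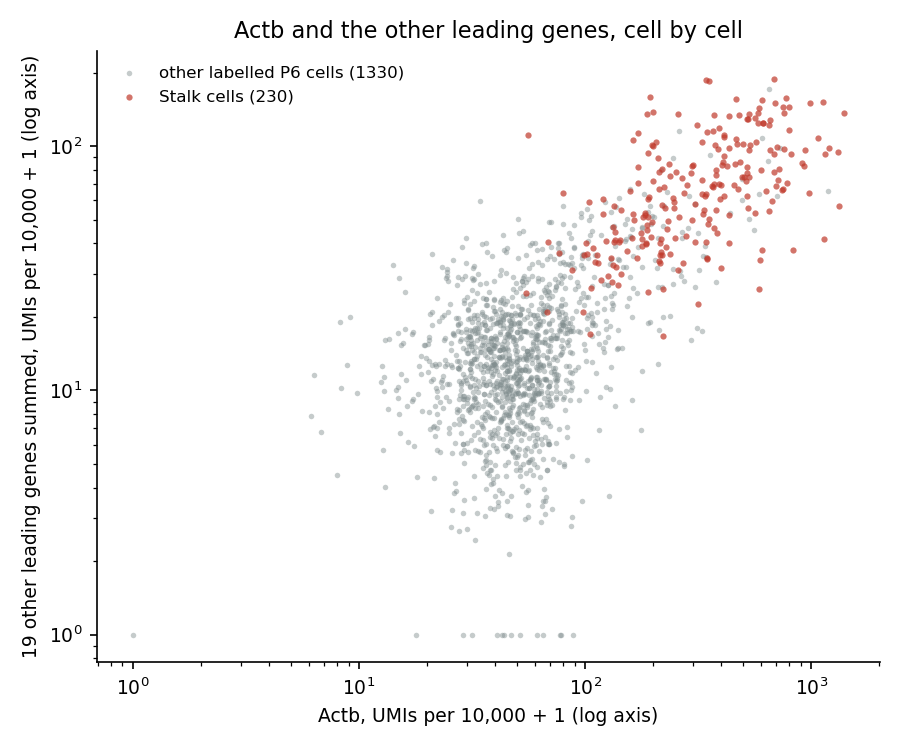
Each point is 1 annotated P6 cell, placed by *Actb* and by the sum of the 19 other leading genes, both in UMIs per 10000 UMIs plus 1 on log axes. Stalk cells (red) lie at the upper right, and cells of other clusters run up into the same range.

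Among 1245 other genes found in at least 50% of Stalk cells, the ones that varied most closely with *Actb* were chosen after their values were seen. *Slc39a1* had the highest correlation, followed by the ER retrieval receptor gene *Kdelr2* (0.50), whose ratio was 3.44, and *Abhd2*. The tubulin genes *Tubb5* (0.36) and *Tuba1b* (0.33) and the tubulin-binding gene *Stmn1* (0.34) were also among the first 15. *Malat1* had the most negative correlation (−0.55), followed by the transmembrane gene *Bsg* (−0.41), *Itm2a* (−0.40), *Cldn5* (−0.39) and the matrix gene *Sparc* (−0.35). As *Actb* took up to 14% of the UMIs of a Stalk cell and cells were thinned to equal totals, a high *Actb* leaves fewer UMIs for all other genes, and its part in these values was not tested.

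The P15 Stalk cells shared the high levels of the leading genes, but not all of the low levels. Values are set side by side only, because 1 library was made per age, both ages had been clustered together and P15 names were held in part. In 85 P15 Stalk cells, *Actb* stood at 27625 CPM against 5165 CPM in 353 other cells (5.35, 5.20 to 5.50), *Ccdc85c* at 144 CPM against 12.6 CPM (11.4, 6.89 to 19.7), *Slc39a1* at 676 CPM against 94.0 CPM (7.19, 5.90 to 8.79), *Amt* at 50.6 CPM against 5.73 CPM (8.83, 3.95 to 21.1) and *Lrrc8a* at 994 CPM against 211 CPM (4.72, 4.08 to 5.45). *Insig1*, at 27.8 CPM, rested on 11 UMIs (2.70, 1.15 to 6.03). All 20 leading genes of P6 had P15 ratios above 1 beyond their intervals, from 2.43 to 11.4. *Jag1* had a P15 ratio of 2.85 (2.24 to 3.61), *Actg1* of 0.872 (0.808 to 0.940) and *Rhoa* of 1.42 (1.22 to 1.66). Among the genes with the lowest P6 ratios, *Cxcl12*, *Ltbp4*, *Nebl*, *Eln* and *Mgp* stood at 683, 132, 91.1, 81.0 and 68.3 CPM in P15 Stalk cells. In P6 Stalk cells they stood at 9.97, 5.70, 3.56, 2.14 and 4.27 CPM. *Aqp1*, *Stmn2*, *Cenpf* and *Aurka* had 0 UMIs in P15 Stalk cells, and *Gm15697* had 1. These differences were not tested.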

How the data were processed

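Wild-type C57BL/6 mouse retinal endothelial cells, sorted as CD31-positive and CD45-negative, were profiled by a 10x Genomics droplet method in 1 library at P6 and 1 at P15. The authors deposited raw UMI counts per gene and barcode, without normalization. Per the submitters' processing notes, Seurat 3.0 and mm10 were used; the aligner and annotation behind the counts are not given in the sources used here. Cluster names are the authors' annotation, made on both ages integrated and after exclusion of cells with *Hbb-bt*, *Neurod1* or *Cd63*, and the sheet calls the Primitive and Proliferative cells Primordial and Primordial-Proliferative. The P6 annotation was complete; 438 P15 names were held.

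Identifiers were matched to symbols (22695 of 22734 at P6) and rows of a symbol were added. UMIs were summed over cells and given as CPM. Ratios carry exact conditional binomial, levels exact Poisson and shares exact Clopper-Pearson 95% intervals, all for counting error only. Genes with at least 200 UMIs over all annotated P6 cells were tested against a 1.5-fold limit; a count of 0 was bounded at 3 UMIs. Thinning drew 3000 UMIs per cell. No doublet caller was run; cells with UMIs of both *Xist* and Y-linked genes, 1 Stalk and 11 others, were left out in an alternative. The calculation was tested on simulated counts.

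Named genes are the 20 highest and 10 lowest ratios, *Actb*, *Amt* and *Ccdc85c*, and list members with the largest, smallest or defining values; a few list results are not reported here, and others are said to be chosen after their values were seen. Members and lists were chosen with earlier results of these data known. Positions are from GENCODE M21 (GRCm38) and promoters from RefSeq (GRCm38.p6). Python 3.11.15, numpy 2.4.6, pandas 2.3.3 and scipy 1.17.1 were used.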

Additional observations from a re-analysis of the deposited data

Results flagged for a closer look

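Of 312 named and tested genes with a row at P15, 1 lay on opposite sides of a ratio of 1 at the 2 ages beyond both intervals and past 1.5-fold at 1 of them. *Cxcl12*, the ligand of CXCR4, stood at 9.97 CPM in Stalk and 95 CPM in other annotated cells at P6 (0.105, 0.0571 to 0.177), and at 683 CPM and 591 CPM at P15 (1.16, 1.01 to 1.32). Each age was 1 library and the difference was not tested. At P6 the other cells included 40 Arterial cells with 1230 CPM. Against Tip, Capillary and Cap-Venous cells alone the P6 ratio was 1.38, from 14 UMIs in Stalk cells and without an interval.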

How the results depend on the processing

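The 20 leading genes stayed at least 1.5-fold higher in all 200 values under 10 alternative settings, from 2.60 to 8.28. The *Actb* ratio was 6.06 with *Actb*, ribosomal and mitochondrial genes left out of the denominator, 6.66 without Proliferative and Primitive cells, 6.00 in cells within the exclusion limits, 5.41 and 4.69 in cells with *Xist* or with Y-linked UMIs alone, 5.48 with the other clusters weighing the same and 6.85 against Tip, Capillary and Cap-Venous cells, a comparison added after the data were seen. Without cells that held both *Xist* and Y-linked UMIs, taken as possible doublets, the *Actb* ratio was 5.81. Higher and lower genes numbered 383 and 1036 at a minimum of 50 UMIs, 82 and 57 at 500 UMIs, and 79 and 70 at 2-fold. Thinned, 487 genes were lower and 202 higher, with fewer cells and UMIs behind each gene.

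Summed ratios without *Actb*, ribosomal and mitochondrial genes in the denominator were 0.978 for stalk, 0.894 for tip and 1.58 for actin genes. Without Proliferative and Primitive cells they were 0.839, 0.808 and 1.59, and those of S phase and mitosis genes turned to 1.42 and 1.52. Against Tip, Capillary and Cap-Venous cells the tip, actin, S phase and mitosis sums were 0.801, 1.54, 1.3 and 1.42. *Stmn2*, *Cxcl12* and *Nebl* turned to 1.23, 1.38 and 1.28, from 2, 14 and 5 UMIs in Stalk cells and without intervals. The median over members was 0.857 for stalk genes, 0.388 for mitosis, 0.946 for actin and, for zinc carriers, 0.925 against a sum of 1.64. The turns to above 1 follow from leaving the dividing or arterial clusters out of the comparison; the cause of the other shifts was not tested. The other 464 of 661 values stayed within the interval or count limit of the main value.

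With 1 library per age no replicate was left out. No paired analysis was possible because each age was 1 library and no result came from a test. Genes under 200 UMIs, such as *Amt*, *Notch1* and *Nrarp*, carry wide intervals, and differences inside them were not detectable at this depth.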

Other observations

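Gene families of the leading genes were listed after the leading genes were seen, so their counts are a description. Among the m6A genes, listed because *Wtap* and *Alkbh5* were already leading genes, 10 were tested and 4 were at least 1.5-fold higher in P6 Stalk cells, beside 2.52% of all genes: *Wtap*, *Alkbh5*, the WTAP complex partner *Rbm15* (131 CPM against 49.2 CPM, 2.67, 2.23 to 3.18) and the reader *Ythdf2* (206 CPM against 78.8 CPM, 2.61, 2.27 to 3.01). The readers *Ythdf1* and *Ythdf3* had ratios of 1.12 (0.813 to 1.53) and 0.856 (0.601 to 1.19), the reader *Ythdc1* of 1.01 (0.809 to 1.25), the second eraser *Fto* of 0.865 (0.607 to 1.20), and the methyltransferase genes *Mettl3* and *Mettl14* had 7 UMIs each in Stalk cells. At P15, *Rbm15* had a ratio of 4.53 (2.84 to 7.23) and *Ythdf2* of 1.35 (0.966 to 1.87).

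Of the zinc carriers, metallothioneins and *Mtf1*, 7 were tested. *Slc39a1* was the 1 gene past 1.5-fold, on the higher side (beside 2.52% of all genes), with *Slc39a8* at 0.946 (0.845 to 1.06), *Slc39a10* at 1.06 (0.911 to 1.22) and the exporter *Slc30a1* at 0.925 (0.683 to 1.23). Of the LRRC8 subunits, *Lrrc8c* stood at 0.933 (0.745 to 1.16) beside 4.14 for *Lrrc8a*. Of 12 tested genes of cholesterol synthesis and its control, 2 were at least 1.5-fold higher (beside 2.52% of all genes) and 0 lower. *Insig1* was 1 of these 2, at 5.60. *Hmgcs1* (1.13, 0.894 to 1.42), *Sqle* (0.764, 0.518 to 1.10) and *Msmo1* (0.886, 0.670 to 1.15) were not past 1.5-fold. Of 13 tested Notch pathway genes, 4 were at least 1.5-fold higher (beside 2.52% of all genes) and 1 lower (beside 4.15%). The higher genes were *Jag1*, *Notch2* (46.3 CPM against 17.1 CPM, 2.70, 1.98 to 3.65), the protease *Furin*, which cleaves Notch receptors (71.2 CPM against 26.6 CPM, 2.68, 2.09 to 3.41), and the coactivator *Maml2* (1.53, 1.26 to 1.84). The lower gene was *Jag2* (0.606, 0.413 to 0.864). The whole Notch list summed to 1496 CPM in Stalk cells, 2191 CPM in Arterial, 1471 CPM in Capillary and 1397 CPM in Cap-Arterial cells. It summed to 928 CPM in Proliferative and 643 CPM in Primitive cells, so a high sum was not particular to Stalk cells. At P15 *Notch2* had a ratio of 3.31 (1.58 to 6.8) and *Furin* of 2.26 (1.51 to 3.34).

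The 148 genes at least 1.5-fold higher in Stalk cells had a median span of 35167 bases from start to end, against 19933 bases over the 5871 tested genes with a GENCODE entry and 19484 bases over the 244 lower genes.

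*Xist* without Y-linked UMIs was found in 29 Stalk cells (12.6%, 8.61 to 17.6%) and Y-linked UMIs without *Xist* in 66 (28.7%, 22.9 to 35.0%), against 17.9% and 24.0% of the other cells, and 1 Stalk cell held both. The *Actb* ratio was 5.41 among cells with *Xist* and 4.69 among cells with Y-linked UMIs and no *Xist*.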
